A study of Homo sapiens with 6 samples.

Results

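The genes examined here were the 9 that encode the subunits of hypoxia-inducible factor (HIF) and the proteins that sense oxygen for it. They were taken from the deposited gene table by their symbols, HIF1A, EPAS1, ARNT, ARNT2, HIF1AN, VHL, EGLN1, EGLN2 and EGLN3, 9 of 38637 genes, with no threshold on their values. RNA was sequenced from OVCAR8, an established human ovarian cancer cell line of wild type genotype. The control group was given DMSO, the solvent, and the treated group 2 nM pladienolide B, an inhibitor of the splicing factor SF3B1, in both cases for 72 h. Each group had 3 samples. The labels do not say that these came from separate cultures, so the p-values measure the spread between these samples, and the data describe 1 cell line at 1 dose and 1 time.

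HIF is a transcription factor made of an oxygen-regulated alpha subunit and a stable beta subunit. While oxygen is present, prolyl hydroxylases of the EGLN family modify the alpha subunit, the VHL protein binds the modified form, and the ubiquitin ligase around VHL sends it for degradation, while HIF1AN hydroxylates an asparagine that the coactivators need. When oxygen falls, these enzymes slow, the alpha subunit accumulates, and genes of glucose uptake, glycolysis, mitophagy and blood vessel growth are switched on, often through a core motif ACGTG near the gene. The regulation of the alpha subunits acts largely on the protein, and only RNA was measured here.

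Expression is given as the deposited adjusted reads, which are read counts per gene scaled to a common library size. A count per gene does not separate spliced from unspliced transcripts, and splicing was not examined here. A gene was called higher or lower in pladienolide B when limma, run on log2(value + 1) over all genes tested, gave a Benjamini-Hochberg adjusted p below 0.05. Of the 9 genes, 8 passed the filter on low values and 4 were called. HIF1A, EPAS1 and VHL were higher, EGLN1 was lower, and ARNT, EGLN2, EGLN3 and HIF1AN were not called. Calls were common in this comparison, with 47.6% of the 16178 tested genes called, 22.4% higher and 25.2% lower, so 4 of 8 was close to the background. The groups did not overlap for 4 of the 8, against 55.3% of all tested genes. None of the 8 passed the threshold with a change of at least 2-fold, as 3.93% of all tested genes did. At an unadjusted p below 0.05 the same 4 members passed, against 53.9% of all tested genes. The content of this comparison therefore lies in which genes moved and by how much, and not in how many.

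**Figure D1:**
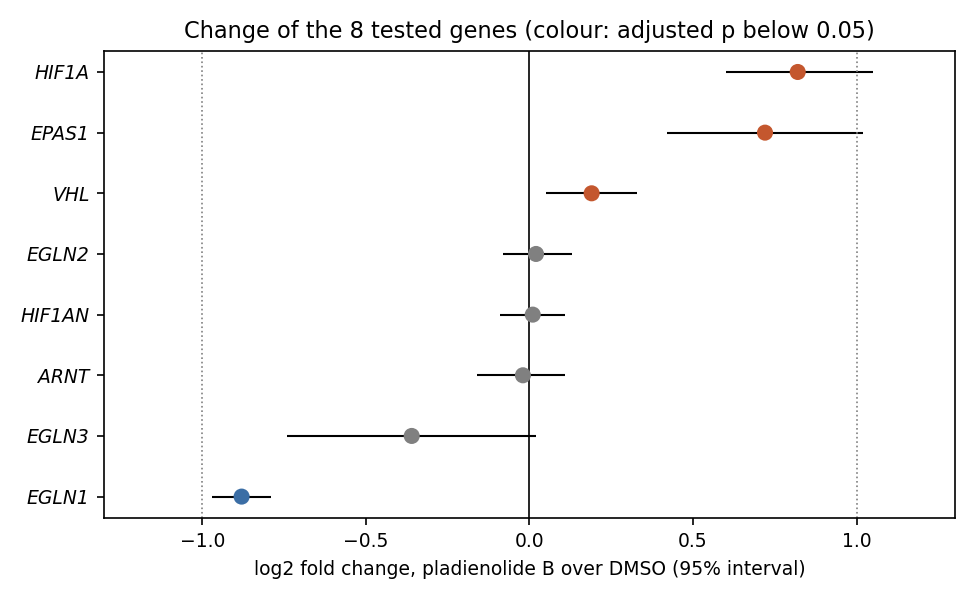
Log2 fold change between pladienolide B and DMSO (positive, higher in pladienolide B) for the 8 tested genes, with lines for the 95% interval from limma, colour for an adjusted p below 0.05 and dotted lines at 2-fold. HIF1A at 0.82 and EPAS1 at 0.72 lie to the right, EGLN1 at -0.88 lies to the left, and ARNT, EGLN2 and HIF1AN lie at 0.02 or less from no change.

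Libraries held between 22621338 and 26130882 recovered reads on genes, and no sample duplicated another. DMSO replicate 2 stood apart: its differences from DMSO replicates 1 and 3 had a chi-square per degree of freedom of 7.75 and 7.71. Counting error alone gives 1, and the value between DMSO replicates 1 and 3 was 2.01. Pairs of pladienolide B samples had 3.19, 3.29 and 4.85, so they also spread more than counting error alone. The values without DMSO replicate 2 are given for each tested member, and for some of the other genes where it moved a call or a value. Of 10 markers of Mullerian epithelium, 6 had over 100 adjusted reads in DMSO, among them PAX8 with a mean of 4108, while WT1, MUC16, CDH1 and KRT19 had 16.4 to 23.8. The defining leukocyte genes were at or near 0, with CD3E at 0 and PTPRC at 0.32 and 0.674 in the 2 groups. Only CD68 of 6 was above 100, and all 4 endothelial markers were under 100. Of 5 fibroblast markers 2 were above 100, COL1A1 with means of 6800 and 5901 and PDGFRB with 241 and 189. The others were low, COL1A2 with means of 21.5 and 42.2, PDGFRA with 2.27 and 5.85 and DCN with 0 and 1.03. In bulk RNA, fewer cells expressing a gene and less RNA per cell cannot be told apart.

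Since HIF acts through ACGTG and EGLN1 is itself a known HIF target, the 250 bases before the RefSeq start of the 3 members with the largest changes, and of EGLN2, the other abundant prolyl hydroxylase, are printed here 5′ to 3′ on the strand of the gene, from RefSeq on GRCh38. Capitals mark ACGTG, the core letters of the HIF response element, read on either strand. HIF1A lies on the + strand with its window at chr14:61695263-61695512, EPAS1 on the + strand at chr2:46297157-46297406, EGLN1 on the - strand at chr1:231422288-231422537, and EGLN2 on the + strand at chr19:40798941-40799190. The RefSeq start of EGLN1, at 231422287, lies inside the span that the deposited table gives, which ends at 231422332.
HIF1A: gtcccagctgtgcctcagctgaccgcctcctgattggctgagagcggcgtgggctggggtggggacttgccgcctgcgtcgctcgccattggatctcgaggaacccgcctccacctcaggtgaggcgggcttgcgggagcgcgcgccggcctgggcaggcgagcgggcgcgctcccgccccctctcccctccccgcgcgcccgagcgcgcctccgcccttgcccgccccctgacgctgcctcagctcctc
EPAS1: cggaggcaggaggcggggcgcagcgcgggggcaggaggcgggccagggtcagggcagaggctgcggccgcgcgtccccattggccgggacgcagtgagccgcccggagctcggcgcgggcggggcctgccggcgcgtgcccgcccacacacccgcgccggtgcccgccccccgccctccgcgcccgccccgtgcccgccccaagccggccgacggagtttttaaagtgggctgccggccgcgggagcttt
EGLN1: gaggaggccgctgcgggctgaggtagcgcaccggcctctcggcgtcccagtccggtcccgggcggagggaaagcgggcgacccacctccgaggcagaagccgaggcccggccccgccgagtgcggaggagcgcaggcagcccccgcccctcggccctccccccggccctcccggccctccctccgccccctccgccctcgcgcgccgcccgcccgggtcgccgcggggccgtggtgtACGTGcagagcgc
EGLN2: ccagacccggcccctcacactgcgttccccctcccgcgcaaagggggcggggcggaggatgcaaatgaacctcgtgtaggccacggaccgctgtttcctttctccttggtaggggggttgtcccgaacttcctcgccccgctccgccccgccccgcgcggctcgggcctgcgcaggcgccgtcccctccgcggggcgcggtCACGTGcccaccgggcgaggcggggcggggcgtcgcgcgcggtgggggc
In EGLN1 the motif began at position -13, counted back from -1 at the last base before the start. In EGLN2 the 6 letters CACGTG hold it on both strands, at positions -49 and -48, and these are overlapping matches. The windows searched ran from 250 bases before to 50 after each start. The 9 windows of the members, which belong to 7 genes, included 2 with the motif (22.2%), against 21.4% of all 35116 RefSeq windows and 24.9% of those of tested genes. HIF1A and EGLN2 each had a second window, at chr14:61697462-61697761 and chr19:40799272-40799571, not printed here. Neither of these second windows held the motif. A match is a description of the letters, and in HIF1A and EPAS1 its lack says only that these letters were not in this window.

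Of the alpha subunits, HIF1A was the abundant one and both rose. HIF1A encodes HIF-1 alpha, the subunit present in most cell types. It lies on chromosome 14 of GRCh38 from 61695513 to 61748258, and its canonical GENCODE transcript has 15 exons and 3946 bases. It had 3770, 5462 and 3499 adjusted reads in DMSO replicates 1 to 3 and 7553, 7469 and 7099 in pladienolide B. All pladienolide B samples were above all DMSO samples, and DMSO replicate 2 was the highest of its group. The mean went from 4244 ± 1064 to 7374 ± 241 (SD, n = 3 in each group), 1.74-fold, and the log2 fold change was 0.82 (standard error, SE, 0.10, 95% interval 0.60 to 1.05, limma adjusted p = 6.3e-06). Of all tested genes, 6.72% had a log2 fold change larger in size. DMSO replicate 2 had 1.5 times the mean of the other DMSO samples, and without it the log2 fold change was 1.02 (limma adjusted p = 6.7e-14).

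EPAS1 encodes HIF-2 alpha, the paralog best known from endothelium, kidney and lung. It lies on chromosome 2 from 46297407 to 46386697, with 16 exons and 5155 bases in the canonical transcript. Its values were 172, 142 and 214 in DMSO and 331, 292 and 245 in pladienolide B. There was no overlap, and the gap between the nearest samples, 214 and 245, was narrow. The mean rose from 176 ± 36.2 to 289 ± 43.3 adjusted reads (SD, n = 3 in each group), and the log2 fold change was 0.72 (SE 0.14, 95% interval 0.42 to 1.02, limma adjusted p = 0.00048). A log2 fold change larger in size was found in 9.24% of all tested genes. DMSO replicate 2 was low for this gene, at 0.736 times the mean of the other DMSO samples, the opposite side from its place for HIF1A. Without it the log2 fold change was 0.58 (limma adjusted p = 0.001).

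Levels of different genes were compared per kilobase of the canonical transcript. On that scale HIF1A had 1075 ± 270 adjusted reads per kilobase in DMSO and 1869 ± 61.2 in pladienolide B, while EPAS1 had 34.2 ± 7.03 and 56.1 ± 8.39 (SD, n = 3 in each group). HIF1A made up 96.7% ± 1.27 of the sum of both in DMSO and 97.1% ± 0.338 in pladienolide B (SD, n = 3 in each group). The balance between the paralogs was the ratio of their adjusted reads within each sample, which was 21.8, 38.1 and 16.3 in DMSO and 22.8, 25.5 and 28.9 in pladienolide B. The groups overlapped, and DMSO replicate 2 had the highest ratio of all 6 samples. The mean log2 ratio was 4.57 ± 0.63 and 4.68 ± 0.17, a difference of 0.10 (exact permutation test over samples, two-sided, p = 0.8, Benjamini-Hochberg adjusted over 4 ratios 0.8). Without 1 sample at a time the difference ran from -0.17 to 0.44, so its direction was not settled. With 3 samples against 3, the exact permutation test cannot go below p = 0.1.

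**Figure D2:**
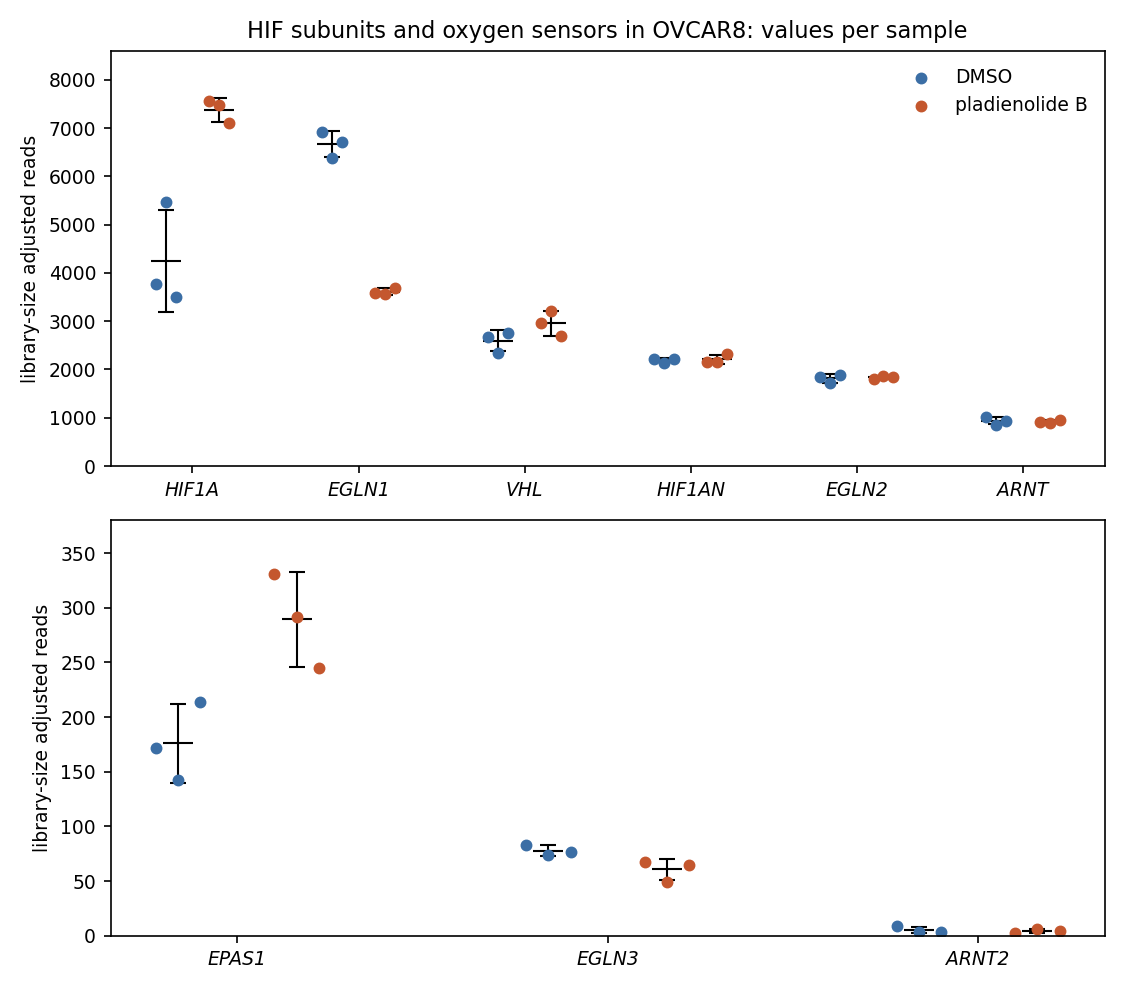
Adjusted reads of each of the 9 genes in the 6 samples, where each point is 1 sample and black bars are the mean ± SD of the group. For HIF1A and EPAS1 the pladienolide B points lie above the DMSO points, for EGLN1 and EGLN3 they lie below, and the other genes overlap.

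The table also lists antisense genes that overlap HIF1A. HIF1A-AS2, on the opposite strand from 61747039 to 61749089, covers the 3′ end of HIF1A, and its span holds 1220 of the exonic bases of HIF1A, or 30.9%. It had 723, 1111 and 657 adjusted reads in DMSO and 1329, 1451 and 1312 in pladienolide B. Each was between 17.6% and 20.3% of the value of HIF1A in the same sample, DMSO replicate 2 included. Its log2 fold change was 0.75 (SE 0.13, limma adjusted p = 0.00012), and 0.98 without DMSO replicate 2. HIF1A-AS3, from 61715558 to 61751097, contains 91.7% of the exonic bases of HIF1A within its span and moved the other way, with 106, 70.7 and 142 adjusted reads in DMSO and 56.2, 48.2 and 58.1 in pladienolide B. Its log2 fold change was -0.91 (SE 0.22, limma adjusted p = 0.0023), or -1.17 without DMSO replicate 2, and it was between 0.646% and 4.05% of the value of HIF1A. HIF1A-AS1 was under the filter, with 3 to 10 recovered reads in a sample. It is not stated that strand was used in counting, so how far the counts of HIF1A and of these antisense genes share reads is not known.

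**Figure D3:**
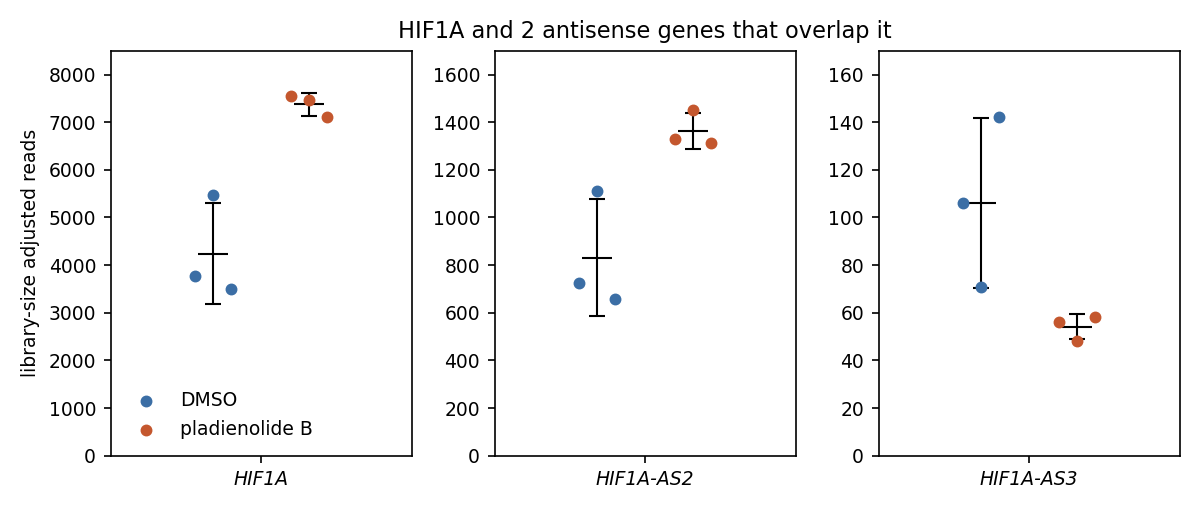
Adjusted reads of HIF1A, HIF1A-AS2 and HIF1A-AS3 in the 6 samples, with each point 1 sample and black bars the mean ± SD. HIF1A and HIF1A-AS2 were higher in pladienolide B, HIF1A-AS3 was lower, and DMSO replicate 2 was the highest DMSO sample for HIF1A and HIF1A-AS2 and the lowest for HIF1A-AS3.

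Of the beta subunits, only ARNT had more than a few reads. ARNT encodes HIF-1 beta, which pairs with either alpha subunit and also with the aryl hydrocarbon receptor. It lies on the - strand of chromosome 1 from 150809713 to 150876737. Its adjusted reads were 1010, 859 and 941 in DMSO and 910, 893 and 957 in pladienolide B. The groups overlapped throughout, with means of 937 ± 75.6 and 920 ± 33.3 (SD, n = 3 in each group). The log2 fold change was -0.02 (SE 0.07, limma adjusted p = 0.80), and the 95% interval of the fold change ran from 0.894 to 1.08. Leaving out DMSO replicate 2 gave -0.08, also not called. ARNT2, the paralog known mainly from brain and kidney, lies on chromosome 15 from 80404382 to 80597933. It had 9, 3 and 4 recovered reads in DMSO and 2, 6 and 4 in pladienolide B and was not tested, as a change of that gene was not detectable at this depth. Per kilobase ARNT made up 99.6% of the sum of both in DMSO and 99.7% in pladienolide B.

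Among the prolyl hydroxylases, EGLN1 fell and the other 2 did not pass the test. EGLN1 encodes PHD2, the main oxygen sensor of HIF-1 alpha in most cells and itself a HIF target. It lies on the - strand of chromosome 1 from 231363756 to 231422332, with 5 exons and 4335 bases in the canonical transcript. It had 6916, 6378 and 6718 adjusted reads in DMSO and 3581, 3560 and 3695 in pladienolide B. The groups were far apart, with the highest pladienolide B sample well under the lowest DMSO sample. The mean went from 6671 ± 272 to 3612 ± 72.5 (SD, n = 3 in each group), so that 54.1% of the DMSO level remained. The log2 fold change was -0.88 (SE 0.04, 95% interval -0.97 to -0.79, limma adjusted p = 8.3e-11). By size, 5.71% of the tested genes changed more, and by p-value EGLN1 ranked 39 of 16178. Leaving out DMSO replicate 2 moved the log2 fold change to -0.92. LOC107985360, which overlaps it, had no more than 1.46% of its value in any sample.

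EGLN2 encodes PHD1, and it lies on chromosome 19 from 40799191 to 40808434. It had 1841, 1713 and 1889 adjusted reads in DMSO and 1809, 1874 and 1844 in pladienolide B. These groups overlapped, and the means were 1814 ± 91.0 and 1843 ± 32.5 (SD, n = 3 in each group). The log2 fold change was 0.02 (SE 0.05, limma adjusted p = 0.73), with a 95% interval of the fold change from 0.944 to 1.09, and it was -0.02 with DMSO replicate 2 left out. The table holds a readthrough gene, RAB4B-EGLN2, whose GENCODE exons share 2012 bases, or 95.8%, with the canonical transcript of EGLN2. Its value was between 97.1% and 99.5% of that of EGLN2 in every sample, while the upstream gene RAB4B had means of 46.5 ± 6.53 and 44.6 ± 7.29 (SD, n = 3 in each group). How reads in shared exons were assigned is not stated, so the level of EGLN2 apart from the readthrough is uncertain.

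EGLN3 encodes PHD3, an enzyme often induced in hypoxia, and it was the rarest of the tested members. It lies on the - strand of chromosome 14 from 33924227 to 33951074. It had 83, 73.6 and 76.5 adjusted reads in DMSO and 67.6, 49.4 and 65.1 in pladienolide B. All pladienolide B samples were below all DMSO samples, and pladienolide B replicate 2 was the lowest. The log2 fold change was -0.36 (SE 0.18, limma adjusted p = 0.11), and the 95% interval of the fold change, 0.597 to 1.01, included no change. The call was not made under any of 14 alternatives, where the log2 fold change ran from -0.44 to -0.22 and was -0.40 without DMSO replicate 2. The antisense gene EGLN3-AS1 was at 0 in all samples.

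Since EGLN1 fell and EGLN2 did not pass the test, the composition of the family differed between the groups. Per kilobase, EGLN1 made up 63.8%, 63.6% and 62.6% of the summed prolyl hydroxylase level in DMSO and 48.2%, 47.4% and 48.6% in pladienolide B. The share of EGLN2 was 35.5% ± 0.684 in DMSO and 50.6% ± 0.792 in pladienolide B (SD, n = 3 in each group). Neither share had overlapping groups. EGLN3 held 1.18% ± 0.0421 and 1.3% ± 0.213 (SD, n = 3 in each group). The sum itself was 2431 ± 102 adjusted reads per kilobase in DMSO and 1733 ± 20.9 in pladienolide B (SD, n = 3 in each group). The shares and the sum rest on the canonical length of each gene and include EGLN2 reads that the readthrough gene may share.

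**Figure D4:**
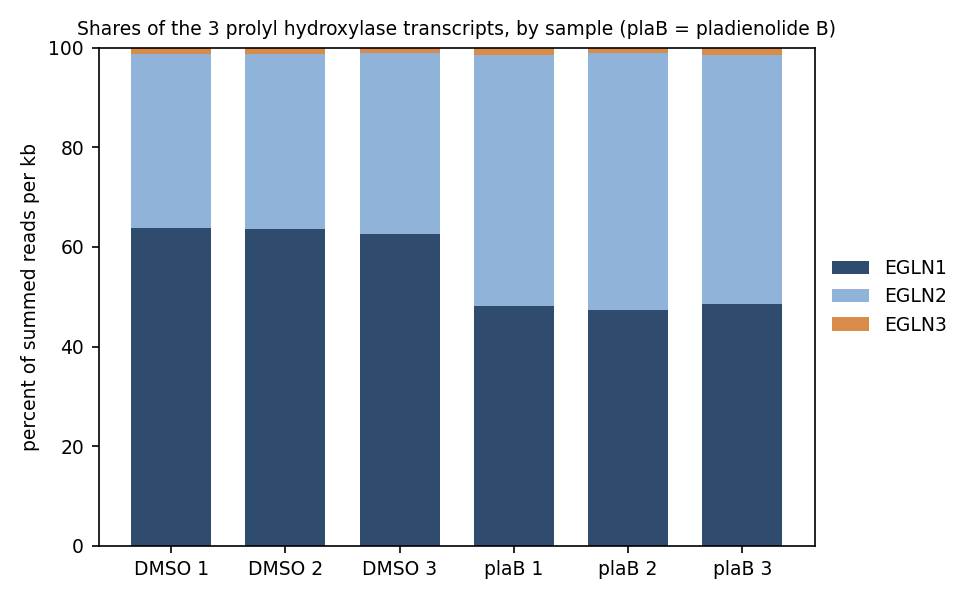
Share of the summed prolyl hydroxylase level per kilobase, in percent, held by EGLN1, EGLN2 and EGLN3 in each of the 6 samples, as stacked bars. EGLN1 held between 62.6% and 63.8% in the DMSO samples and between 47.4% and 48.6% in the pladienolide B samples, and EGLN3 under 2% in all.

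The ratio of EGLN1 to EGLN2 adjusted reads was 3.76, 3.72 and 3.56 in DMSO and 1.98, 1.9 and 2 in pladienolide B. Its log2 value went from 1.88 ± 0.04 to 0.97 ± 0.04 (SD, n = 3 in each group), a difference of -0.91, and it stayed between -0.93 and -0.89 without 1 sample at a time. The ratio of EGLN1 to EGLN3 differed by -0.52 and that of EGLN2 to EGLN3 by 0.39 on the log2 scale. For all 3 ratios the groups did not overlap, and the exact permutation test over samples gave p = 0.1, the smallest it can give with 3 samples against 3 (Benjamini-Hochberg adjusted over 4 ratios 0.133). The EGLN2 reads that the readthrough gene may share enter both ratios that contain EGLN2.

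HIF1AN encodes FIH, the asparaginyl hydroxylase that blocks binding of coactivators to the alpha subunits. It lies on chromosome 10 from 100535921 to 100559998. It had 2227, 2138 and 2222 adjusted reads in DMSO and 2163, 2146 and 2324 in pladienolide B, and the groups overlapped. The means were 2196 ± 49.9 and 2211 ± 98.3 (SD, n = 3 in each group), and the log2 fold change was 0.01 (SE 0.05, limma adjusted p = 0.89). The 95% interval of the fold change was 0.938 to 1.08, and leaving out DMSO replicate 2 gave -0.01 on the log2 scale.

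VHL encodes the substrate receptor of the ubiquitin ligase and lies on chromosome 3 from 10141778 to 10153667. It had 2665, 2346 and 2762 adjusted reads in DMSO and 2960, 3210 and 2694 in pladienolide B. The groups overlapped, since pladienolide B replicate 3 was below DMSO replicate 3. The mean went from 2591 ± 218 to 2955 ± 258 (SD, n = 3 in each group), and the log2 fold change was 0.19 (SE 0.06, 95% interval 0.05 to 0.33, limma adjusted p = 0.024). This was the smallest of the called changes, and 57.7% of all tested genes had a log2 fold change larger in size. It was the least stable as well: it was called under 10 of 14 alternatives. Leaving out DMSO replicate 2 gave 0.12 (limma adjusted p = 0.077), and leaving out pladienolide B replicate 2 gave 0.13 (limma adjusted p = 0.16). It was also lost without pladienolide B replicate 1 and in limma without the variance trend.

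The order of the 9 levels per kilobase also differed between the groups. In DMSO, EGLN1 was first with 1539 ± 62.8, followed by HIF1A with 1075 ± 270, EGLN2 with 864 ± 43.3, VHL with 587 ± 49.4, ARNT with 199 ± 16, HIF1AN with 170 ± 3.86, EPAS1 with 34.2 ± 7.03, EGLN3 with 28.7 ± 1.77 and ARNT2 with 0.784 ± 0.463 adjusted reads per kilobase (SD, n = 3). EPAS1, at 27.6 to 41.6, and EGLN3, at 27.2 to 30.7, overlapped, and so did HIF1A, at 887 to 1384, and EGLN2, at 816 to 899. In pladienolide B, HIF1A was first with 1869 ± 61.2, EGLN2 was next with 877 ± 15.5, and EGLN1 came after with 833 ± 16.7 (SD, n = 3). The ranges of EGLN2, 862 to 893, and EGLN1, 821 to 852, did not overlap there, but lay close. In adjusted reads EGLN1 stayed above EGLN2 in pladienolide B, with means of 3612 and 1843. Their order per kilobase rests on the canonical lengths, 4335 and 2100 bases, and on EGLN2 reads that the readthrough gene may share. The other 6 genes kept their order. The place of HIF1AN also rests on length, as its canonical transcript has 12927 bases and that of ARNT 4710. In adjusted reads HIF1AN was above ARNT, with means of 2196 and 937 in DMSO and 2211 and 920 in pladienolide B. It was also above EGLN2, with 1814 and 1843 in the 2 groups. In DMSO, 92.4% of the tested genes with a canonical transcript had a lower level per kilobase than EGLN1, 88.3% a lower one than HIF1A and 21.2% a lower one than EPAS1.

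The remaining proteins of the VHL ubiquitin ligase and its regulators were read from a list of 11 genes, of which 10 were tested. In it 3 rose and 1 fell, 40% called against 47.6% of all tested genes, with a median log2 fold change of 0.09 against 0 for all tested genes. CUL2, the scaffold of the ligase, went from 1808 ± 117 to 2225 ± 148 adjusted reads, a log2 fold change of 0.30 (limma adjusted p = 0.00045). UBE2D1, a ubiquitin-conjugating enzyme, rose by 0.50 (limma adjusted p = 2.1e-05), and USP20, a deubiquitinase that VHL binds, by 0.28 (limma adjusted p = 0.0073). RBX1, the RING protein that recruits the conjugating enzyme, was called lower with -0.19 (limma adjusted p = 0.022), though its groups overlapped and the call was lost under 4 alternatives, among them without DMSO replicate 2 and without pladienolide B replicates 2 or 3. The adaptors ELOB and ELOC, which link VHL to CUL2, had log2 fold changes of 0.07 and 0.09 and were not called. With DMSO replicate 2 left out, ELOC was called higher with 0.16 (limma adjusted p = 0.0079), and so was NEDD8, which activates the ligase, with 0.23 (limma adjusted p = 0.00011).

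HIF subunits belong to the bHLH-PAS family, and 9 of 12 other family members were tested, with 3 higher and 4 lower. That was 77.8% called against 47.6% of all tested genes, with a median of -0.26 against 0. AHR, the aryl hydrocarbon receptor, shares ARNT as its partner, and it rose from 567 ± 18.5 to 793 ± 38.9 adjusted reads (0.48 on the log2 scale, limma adjusted p = 1.4e-05). AHRR, its repressor, rose from 469 ± 9.27 to 737 ± 37.9 (0.65, limma adjusted p = 7e-07). SIM1, a developmental factor that also pairs with ARNT proteins, fell from 701 ± 33.2 to 342 ± 35 (-1.04, limma adjusted p = 3.4e-08), and its groups did not overlap. The circadian factor CLOCK had -0.34 (limma adjusted p = 2.4e-05) and its partner ARNTL -0.44 (limma adjusted p = 0.027, with overlapping groups and a call lost under 5 alternatives, among them without DMSO replicates 1 or 3 and pladienolide B replicates 2 or 3). HIF3A, the remaining alpha subunit, was under the filter with means of 5.47 and 9 adjusted reads.

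Of 19 coactivators, chaperones and competing partners of HIF, all of them tested, 6 were higher and 5 lower. That was 57.9% called against 47.6% of all tested genes, with a median of -0.03 against 0. The largest rises were CITED4, a competitor for the coactivator domain that HIF binds, at 0.66 (limma adjusted p = 0.0003), the coactivator NCOA3 at 0.42 (limma adjusted p = 2.7e-06) and HSP90AA1 at 0.40 (limma adjusted p = 0.00029). HSP90AA1 encodes a chaperone that holds HIF-1 alpha, and its value of 88875 adjusted reads in DMSO replicate 2 was above the 67609 and 68651 of the other DMSO samples. The largest falls were in ubiquitin ligases. SIAH2, which marks prolyl hydroxylases for degradation, fell from 974 ± 101 to 615 ± 24.8 adjusted reads (-0.66, limma adjusted p = 1.7e-06), its relative SIAH1 by 0.30 on the log2 scale (limma adjusted p = 0.0011), and STUB1, also known as CHIP, by 0.55 (limma adjusted p = 3.4e-07).

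Genes known as HIF targets, taken from 4 lists and counted once each, were mostly lower in pladienolide B. Of 75 such genes, 68 were tested, 55 were lower and 7 higher, against 25.2% lower and 22.4% higher among all tested genes, and the median log2 fold change was -0.70 against 0. At least 2-fold changes were 22 falls and 1 rise, against 320 falls and 315 rises among all 16178 tested genes. These lists were written with the fall of hypoxia genes in these samples already known, so their count is a description and not independent evidence of the direction. Under the alternatives the count ran from 52 to 56 lower and 6 to 8 higher, and without DMSO replicate 2 it was 56 and 8. Set side by side, HIF1A and EPAS1 rose while 55 targets fell, and EGLN1, itself a target, also fell. DMSO replicate 2 was high for HIF1A, at 1.5 times the mean of the other DMSO samples, and low for EPAS1, at 0.736 times. In it, 60 of the 68 targets were lower and 8 higher than the mean of DMSO replicates 1 and 3. Their median was -0.20 on the log2 scale, against 0.01 for all tested genes, for which lower and higher were not counted. This is 1 sample, and a link between these values was not tested. The part of DMSO replicate 2 in the counts was measured by leaving it out, as above.

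**Figure D5:**
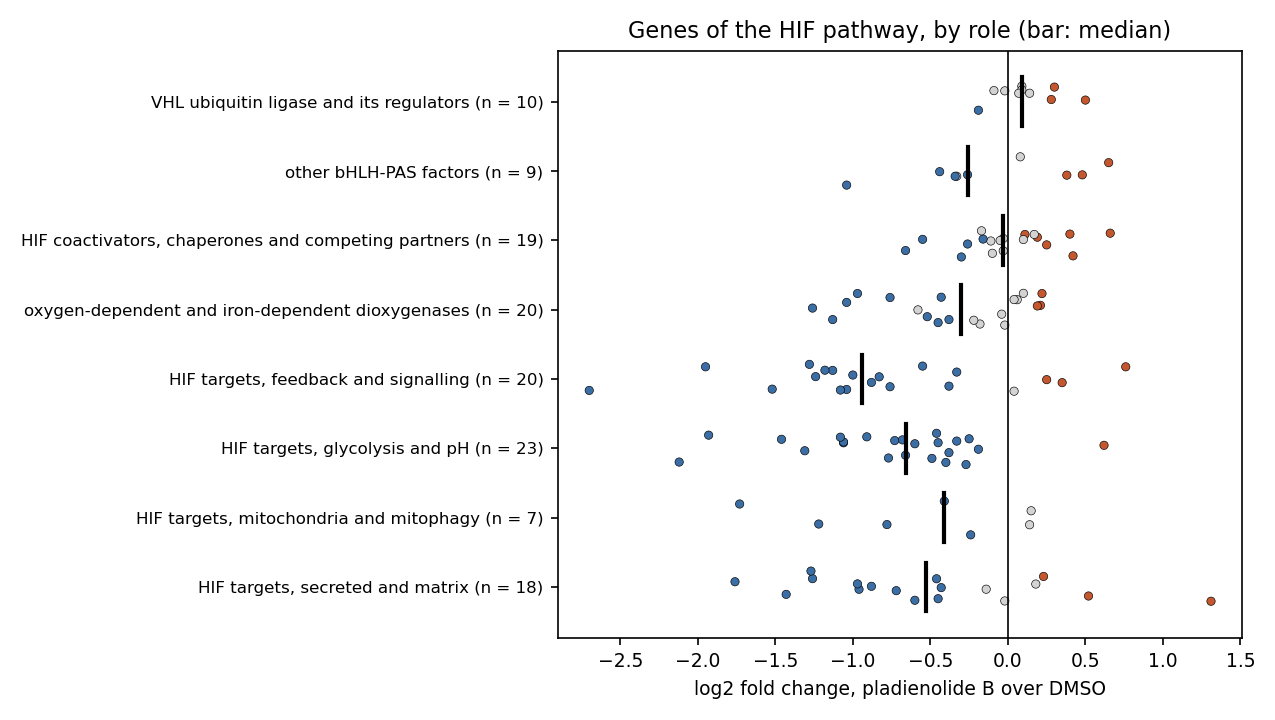
Log2 fold change between pladienolide B and DMSO (positive, higher in pladienolide B) for the tested genes of each list of the HIF pathway, with points for genes (orange called higher, blue called lower, grey not called) and black bars for the list's median. The 4 lists of HIF targets have medians from -0.94 to -0.41, and the ubiquitin ligase and coactivator lists have medians of 0.09 and -0.03.

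By function, the targets for glycolysis and pH were 22 lower and 1 higher of 23 tested, with a median of -0.66. Beside this and the other target lists, 25.2% of all tested genes were lower and 22.4% higher, with a median of 0. HK2, which traps glucose in the cell by phosphorylation, had 3087, 2200 and 3096 adjusted reads in DMSO and 578, 650 and 685 in pladienolide B (log2 fold change -2.12, limma adjusted p = 6.9e-11), with no overlap. SLC2A1, the glucose transporter GLUT1, fell from 4027 ± 680 to 1452 ± 123 (-1.46, limma adjusted p = 1.7e-09), and PFKFB4, a regulator of glycolytic flux, from 2554 ± 378 to 669 ± 76.1 (-1.93, limma adjusted p = 8e-11). CA12, a carbonic anhydrase that sets pH outside the cell, was the gene that rose, from 103 ± 8.65 to 158 ± 13.8 (0.62, limma adjusted p = 0.0011). In the feedback and signalling list 16 were lower and 3 higher of 20, with a median of -0.94. DDIT4, an inhibitor of mTOR signalling, had 5104, 2095 and 4982 adjusted reads in DMSO and 556, 534 and 649 in pladienolide B (-2.70, limma adjusted p = 3.1e-08), and DMSO replicate 2 was the lowest of its group, without which the log2 fold change was -3.12. MIR210HG, the host of a hypoxia-induced microRNA, fell from 219 ± 40.1 to 56.3 ± 12.9 (-1.95, limma adjusted p = 1.9e-07), and CCNG2, a cyclin that slows the cell cycle, had -1.52 (limma adjusted p = 1.1e-09). BHLHE41, HMOX1 and CITED2 were the 3 that rose, by 0.76, 0.35 and 0.25. The call of HMOX1 was lost under 2 of 14 alternatives, without pladienolide B replicate 2 and in limma without the variance trend.

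Of the 7 tested targets in mitochondria and mitophagy, 5 were lower and none was higher, with a median of -0.41. PDK3, called with -0.24 (limma adjusted p = 0.047), lost its call under 9 of 14 alternatives, among them without DMSO replicates 1 or 3 and without pladienolide B replicates 1 or 2. Without DMSO replicate 2, ISCU, an iron-sulfur cluster scaffold, was called higher with 0.20 (limma adjusted p = 0.013), against 0.14 and no call with all samples. BNIP3, a receptor for mitophagy, had 8978, 7838 and 9618 adjusted reads in DMSO and 2560, 2616 and 2787 in pladienolide B (-1.73, limma adjusted p = 3.5e-12). Its relative BNIP3L went from 5368 ± 608 to 3107 ± 44.5 (-0.78, limma adjusted p = 2.8e-08), and the mitochondrial protease LONP1 from 5289 ± 339 to 2270 ± 36.6 (-1.22, limma adjusted p = 1.2e-11). Among 18 tested secreted and matrix targets, 12 were lower and 3 higher, with a median of -0.53. VEGFA, the growth factor for blood vessels, had 1490, 917 and 1414 adjusted reads in DMSO and 471, 528 and 546 in pladienolide B (-1.27, limma adjusted p = 3.9e-07). EDN1, the vasoconstrictor endothelin, had -1.76 (limma adjusted p = 3e-09) and IGFBP3, a binding protein for insulin-like growth factors, -1.43 (limma adjusted p = 1.7e-12). STC1, a secreted glycoprotein, rose from 92.3 ± 34.5 to 218 ± 17.2 (1.31, limma adjusted p = 9e-05), and by 0.95, under 2-fold, without DMSO replicate 2. TGFA, a ligand of the EGF receptor, rose by 0.52. CA9, a widely used hypoxia marker, was not tested, with means of 9.62 and 2.07 adjusted reads. The windows around the starts of the target genes, not limited to tested ones, held ACGTG in 44 of 92 (47.8%), against 24.9% of those of tested genes. These genes were listed because they are known HIF targets, so that share is not a result of these samples. Among windows of all genes called lower it was 26.8%, and among those called higher 25.1%.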

How the data were processed

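RNA of OVCAR8 cells was sequenced in 6 samples, grouped by their titles. The study's methods name trimming and alignment with HISAT2 to hg38, and the submitters' processing notes name hg19, HTSeq 0.12.4 and DESeq2. Of 35926 symbols matched, 99.8% overlapped their GRCh38 position. The authors deposited a normalized signal per gene and sample, which had the form of read counts adjusted by edgeR to a common library size. Inverting this returned whole reads, within 0.02, for 100% of the 226083 values above 0. The deposited fold changes, p-values and q-values were not used. Gene models, strand use and the treatment of shared exons in counting are not given in the sources used here.

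The set of 9 genes was defined by symbol with no threshold on values, but it and the gene lists were chosen with earlier results of these data known. Genes kept by filterByExpr (minimum 10 in a group, 15 in total) were tested on log2(value + 1) with limma 3.58.1, two-sided, with a variance trend and Benjamini-Hochberg adjustment over 16178 genes. This scale understates changes of low genes. On the recovered reads edgeR 4.0.16 called 7738 genes and DESeq2 1.42.0 called 6985, against 7695. Ratios were tested by exact permutation over samples. Steps were tested on simulated data. All members were named, any gene of lists up to 12 genes, and of longer lists up to 3 rises and 3 falls, the largest with groups that did not overlap and a mean of at least 10. Genes overlapping members and, for the 2 largest changes, the 3 genes of most like pattern were also named. Exons and lengths came from GENCODE canonical transcripts on GRCh38, promoter windows from RefSeq. VHL and ARNT2 had no window, and protein sequences were not compared. CA9 and the marker genes were named outside this rule. Alternatives were other normalizations, at least 10 in every sample, no filter beyond 1 read, a pseudocount of 0.1, no variance trend, a replicate block and leaving out each sample. The counts of targets under the alternatives were added after the data were seen. The ratio of ARNT to ARNT2 was not tested, because ARNT2 had a mean under 10. A gene that the rule would name is not reported here.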

Additional observations from a re-analysis of the deposited data

How the results depend on the processing

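Under 14 alternatives HIF1A, EPAS1 and EGLN1 were called every time, with log2 fold changes of 0.70 to 1.02, 0.58 to 0.87 and -0.92 to -0.86, and ARNT, EGLN2, EGLN3 and HIF1AN never. VHL ran from 0.12 to 0.25 and lost its call under 4. Between 3 and 4 members were called, 2 to 3 of them higher and 1 lower. Of 112 values for members, 104 kept direction and side of the threshold, 4 were no longer called and 4 changed sign close to 0. With 1 sample left out, ARNT ran from -0.08 to 0.03, positive without DMSO replicate 1, EGLN2 from -0.02 to 0.05, negative without DMSO replicate 2, and HIF1AN from -0.03 to 0.03, negative without DMSO replicate 2 (-0.01) and pladienolide B replicate 3. UBE2D2 ran from -0.05 to 0.03, positive without DMSO replicate 2 and pladienolide B replicate 3 (0.01). Of 784 values for 56 list genes, 753 kept their call, 21 lost it, 8 gained it and 2 changed sign, the losses being in PDK3, ARNTL, RBX1, HMOX1 and OGFOD1 and the gains in NEDD8, NPAS1, ELOC and ISCU. The cause was not tested.

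Samples with the same replicate number did not deviate together, with correlations of -0.018, -0.017 and 0.0026. Between different numbers the correlations ran from -0.035 to 0.048. No pairing by number was seen, but this cannot show whether samples of the same number were grown or handled together. With the replicate number as a block 7349 genes and the same count of 4 members were called, and the smallest p for a ratio was 0.25. A planned comparison of protein sequences was not run. EGLN3, with 49.4 to 83 adjusted reads, and ARNT2 are the members whose depth limits the precision.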

Other observations

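Other dioxygenases that need oxygen and iron, as the prolyl hydroxylases do, were read from a list of 20 genes, all tested. In it 3 were higher and 9 lower, 60% called against 47.6% of all tested genes. The median log2 fold change was -0.30 against 0 for all tested genes. This list overlaps the HIF target lists, which were written with the fall of hypoxia genes known: 8 of its genes are on both, and these include 7 of the 9 lower ones. Of the other 12, 3 were higher and 2 lower, with a median of -0.03, a split made after the values were seen. P4HA1, which hydroxylates prolines of collagen, went from 4167 ± 383 to 1740 ± 66.8 adjusted reads (SD, n = 3 in each group), and its log2 fold change was -1.26 (limma adjusted p = 5e-11). The histone demethylases KDM4B and KDM3A fell by 1.13 and 1.04 on the log2 scale (limma adjusted p = 1.6e-08 and 2.4e-10). Both of them and P4HA1 are on the HIF target lists, and the groups overlapped for none of the 3. OGFOD1, a hydroxylase of the ribosome, KDM5C, a histone demethylase, and ADO, a thiol dioxygenase, rose by 0.22, 0.21 and 0.19 (limma adjusted p = 0.0028, 0.0014 and 0.01), and the call of OGFOD1 was lost in limma without the variance trend.

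Over the 6 samples, the pattern nearest that of EGLN1 among tested genes was that of POLD1, the catalytic subunit of DNA polymerase delta, with a mean absolute difference of 0.017 between the centred log2 values. APEH, a peptidase, and ALDH16A1 followed with 0.019 and 0.02, and their log2 fold changes were -0.89 and -0.90. For HIF1A the nearest was the overlapping HIF1A-AS2 with 0.052, whose count may include the same reads. PLCD4, a phospholipase C, and KBTBD8, an adaptor of a ubiquitin ligase, followed, each with 0.053 and a log2 fold change of 0.77. All these genes were chosen for their likeness over the same samples, so their values are a description.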
